A study of Mus musculus with 37 samples.

Results

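Polycomb repressive complex 2 (PRC2) was followed through 9 genes in sorted mouse primordial germ cells: Ezh1, Ezh2, Eed, Suz12, Jarid2, Mtf2, Phf19, Rbbp4 and Rbbp7. They were taken by gene symbol from 2 deposited expression tables of 24318 genes each, and all 9 symbols were found. Of these, 8 passed the filter on low values at each stage, a mean of 1 RPKM or above (reads scaled for transcript length and sequencing yield). Jarid2 did not pass. Primordial germ cells are the embryonic precursors of eggs and sperm. In this series they carried the Oct4-IRES-Gfp reporter and were sorted for GFP. Dams homozygous for the Dnmt12lox allele were mated with Blimp1-Cre males. Blimp1 marks the germ cell lineage but is also active in other embryonic cells. The knockout, called DCKO, is labelled Dnmt1 -/-, and its control is labelled wild type. Whether a control embryo carried Cre or a floxed allele is not given in the sources used here, nor is the number of embryos behind a library. Any p-value here therefore measures the spread between libraries, which may be technical in part. Embryos were taken at days E10.5 and E11.5 after mating. The younger stage had 3 DCKO libraries, from 2 females and 1 male, and 4 controls, 2 of each sex. The older stage had 10 DCKO libraries, from 6 females and 4 males, and 8 controls, 4 of each sex. The labels hold 12 more samples, of stage E13.5, which were not analysed here.

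PRC2 places the repressive histone mark H3K27me3. Ezh2 and Ezh1 are its alternative methyltransferases, Eed reads the mark and stimulates the enzyme, and Suz12 is the scaffold that holds the core together. Rbbp4 and Rbbp7 are histone-binding subunits that also serve in other chromatin complexes. Mtf2 and Phf19 are Polycomb-like proteins that help bring the complex to CpG-rich DNA, and Jarid2 is the defining subunit of another form of the complex. DNA methylation and H3K27me3 are both reorganised in germ cells at about these stages, and Dnmt1 maintains DNA methylation through replication.

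The promoters of the genes are shown because CpG is the substrate of Dnmt1. RefSeq (build GRCm38.p6, not the mm9 build of the expression data) gave 11 windows of 300 bases for the 9 genes. CpG counts were 23 for Ezh1, 31 for Ezh2, 17 for Eed, 41 for Suz12, 38 for Phf19, 39 for Rbbp4 and 38 for Rbbp7. Jarid2 had a pair of start sites with 24 and 23 CpG, and Mtf2 had one start with 30 and another with 2. The median of all 32851 windows was 7 and the upper quartile was 20, so every member except Eed had a window above the upper quartile. The last 100 bases before the start of the enzymes, of Eed and of Suz12 are printed 5′ to 3′ on the strand of the gene, with each CpG in capitals. They lie at chr11:101226464-101226563 (Ezh1, minus strand), chr6:47595031-47595130 (Ezh2, minus strand), chr7:89980977-89981076 (Eed, minus strand) and chr11:79993006-79993105 (Suz12, plus strand), in the promoter of each gene.
Ezh1: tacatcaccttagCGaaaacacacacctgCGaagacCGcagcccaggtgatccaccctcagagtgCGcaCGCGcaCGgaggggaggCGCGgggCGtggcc
Ezh2: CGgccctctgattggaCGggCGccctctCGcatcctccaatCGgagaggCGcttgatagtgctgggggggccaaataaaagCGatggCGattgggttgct
Eed: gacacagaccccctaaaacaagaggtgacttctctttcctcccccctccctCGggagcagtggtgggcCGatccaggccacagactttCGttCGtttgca
Suz12: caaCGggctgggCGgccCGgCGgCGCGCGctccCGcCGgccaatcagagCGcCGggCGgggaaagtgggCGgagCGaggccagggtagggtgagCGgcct
These stretches held 10, 8, 4 and 15 CpG in that order, so Suz12 was the densest and Eed the sparsest.

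E2F factors drive genes of cell proliferation, and Ezh2 and Eed are known E2F targets in dividing cells. E2F-type motifs (TTTCCCGC, TTTCGCGC, TTTGCCGC or TTTGGCGC on either strand, overlapping matches counted once) were found in the windows of Ezh2, Suz12 and Phf19. Of all windows of this length 2.26% held one, and 5.15% of the 8701 windows with at least 20 CpG did. The 3 matches are printed with the motif in capitals. They are at chr6:47595016-47595037 (Ezh2, minus strand), chr11:79992877-79992904 (Suz12, plus strand) and chr2:34914167-34914194 (Phf19, minus strand).
Ezh2: ggttgctgcgTTTGGCGCtcgg
Suz12: gacccctcatTTTCCCGCgaattcagtt
Phf19: tcaataattcGCGGGAAAacgcgaaaaa
A match describes letters only, and no methylation or binding was measured at these windows.

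Libraries differed in more than their labels. Between 9125 and 11095 genes reached 1 RPKM in an E10.5 library and between 8277 and 13200 in an E11.5 library; read depth is unknown. Dnmt1 was 14.9 to 29.6 RPKM in the E10.5 DCKO libraries and 74.1 to 107 RPKM in their controls, and 13.0 to 59.4 RPKM and 72.9 to 296 RPKM at E11.5. Germ cell markers were high in nearly all libraries, and Pou5f1 (the Oct4 gene) ran from 61.8 to 290.3 RPKM at E10.5. At E11.5, the 3 libraries with the lowest Pou5f1 also had the highest mean of log2(RPKM + 1) over somatic cell markers. They were male control 3 (7.15 RPKM, somatic mean 4.00), male DCKO 1 (14.8 RPKM, 2.33) and female DCKO 4 (25.6 RPKM, 3.46). The somatic mean of male DCKO 1 was close to that of female control 3 (2.26), where Pou5f1 was at 109 RPKM. In bulk samples, fewer cells of a type and less RNA per cell cannot be told apart. The part of these markers in the results on PRC2 was tested only by leaving those libraries out and by a covariate.

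Of the 9 genes, 8 were above 0 in every library and Jarid2 was listed at exactly 0 in 25 of 25. An exact 0 can be a failed estimate in such tables: 4679 genes were at 0 in every library, and Npm1, an abundant nucleolar protein of all cells, was at 0 in 10 of 10 E11.5 DCKO libraries. Jarid2 is therefore given as listed at 0, with no fold. The order of the mean levels, per transcript length, was alike at both stages. At E10.5 it was Rbbp7 (89.8 RPKM), Ezh2 (85.7), Mtf2 (81.8), Eed (56.1), Suz12 (49.4), Phf19 (48.8), Rbbp4 (27.2) and Ezh1 (5.51). At E11.5 it was Rbbp7 (106 RPKM), Ezh2 (91.9), Mtf2 (70.5), Suz12 (55.6), Eed (54.9), Rbbp4 (28.9), Phf19 (24.1) and Ezh1 (8.02). Most neighbours in this order did not separate library by library. At E11.5 Rbbp7 was above Ezh2 in 11 of 18 libraries, Suz12 was above Eed in 7 of 18, and Rbbp4 was above Phf19 in 11 of 18. Ezh2 was above Mtf2 in 14 of 18, Mtf2 above Suz12 in 14 of 18, and Phf19 above Ezh1 in 16 of 18. At E10.5 Rbbp7 was above Ezh2 in 4 of 7 libraries and Ezh2 above Mtf2 in 4 of 7. Rbbp4 was above Ezh1 in 7 of 7.

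**Figure D1:**
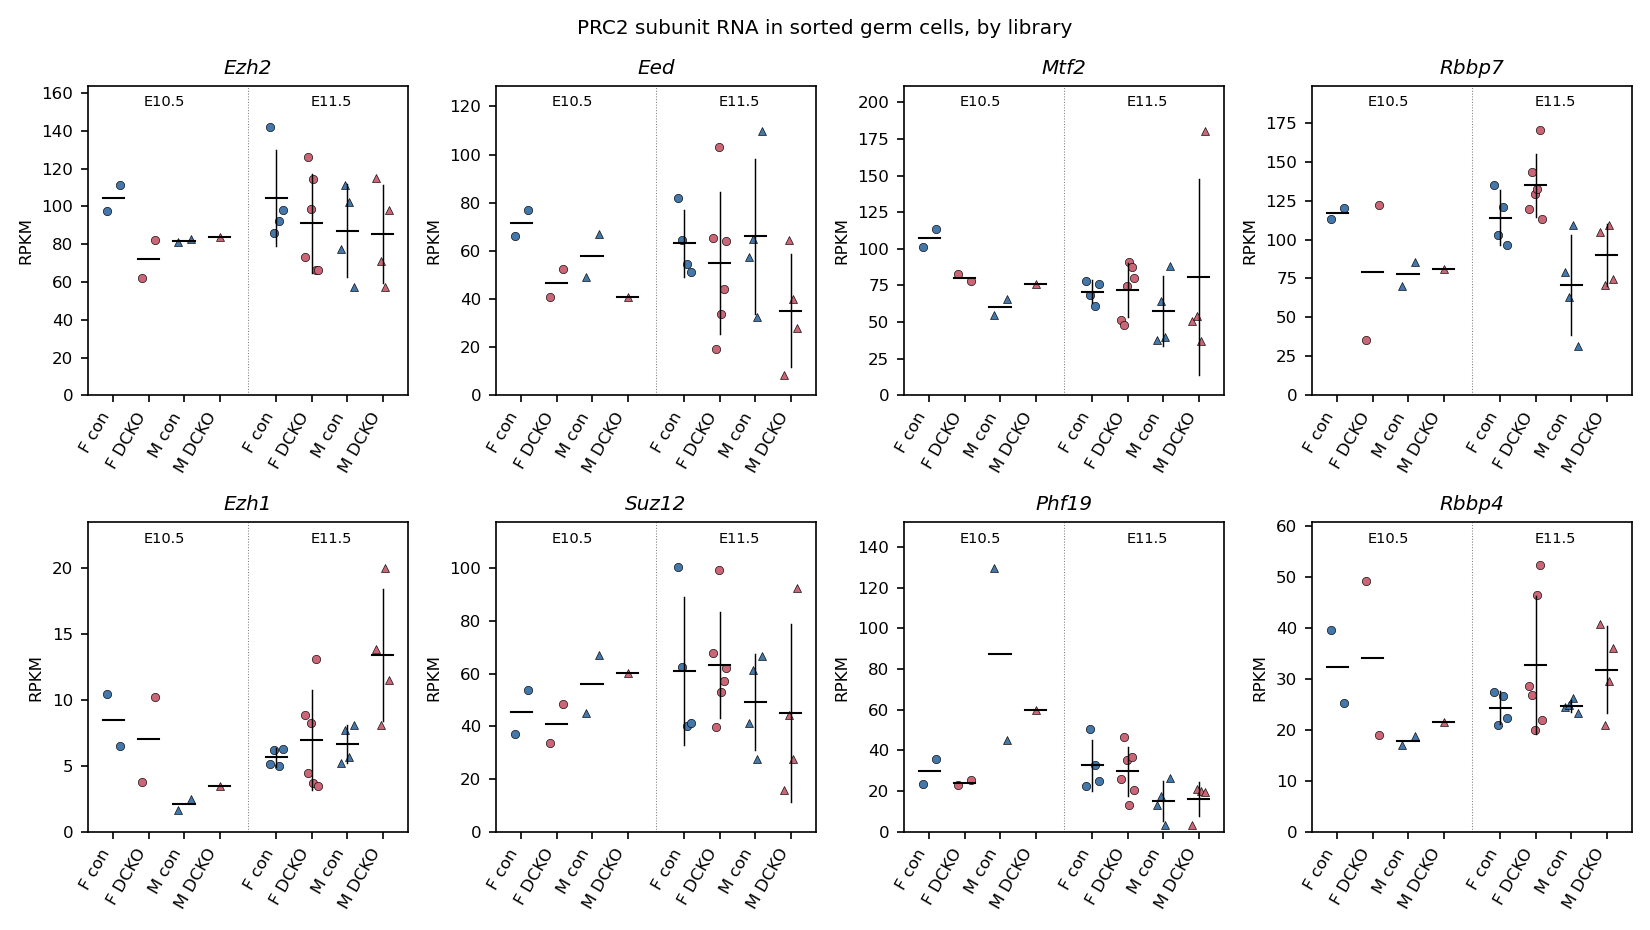
RPKM of 8 PRC2 genes in each library (points; circles female, triangles male, blue control, red DCKO), with E10.5 left and E11.5 right of the dotted line. Horizontal bars are group means and vertical bars 1 SD where a group has more than 2 libraries; taken over both sexes, DCKO and control points overlap in every panel, and Ezh1 is the lowest gene in level, at 19.99 RPKM or less.

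The first comparison asked whether RNA of the complex differs between Dnmt1-deficient and control germ cells. No PRC2 gene passed limma's threshold at either stage. Dnmt1, the targeted gene, passed at E11.5 (log2 fold change -2.07, limma adjusted p = 0.0355) but not at E10.5 (-2.07, limma adjusted p = 0.991). Within a sex at E11.5 it did not pass (-2.10 in females, limma adjusted p = 0.567, and -2.05 in males, limma adjusted p = 0.585). A gene with such a difference could thus miss the threshold at E10.5 or within a sex. At E11.5, 0 of 8 tested members had an adjusted p under 0.05 in limma, against 3 of 12667 genes, or 0.0237% of all genes tested. Those 3 include Dnmt1 and Npm1. The latter was listed at 0 in 10 of 10 E11.5 DCKO libraries, which can be a failed estimate. At an unadjusted p under 0.05 there were 0 of the 8 members and 692 of all genes. At E10.5, 0 of 8 members and 0 of 11584 genes passed (0%), with 358 genes at an unadjusted p under 0.05. At E11.5 the log2 fold changes (DCKO minus control, on the log2(RPKM + 1) scale) were above 0 for 4 members and below 0 for 4. Their median was 0.06, beside -0.06 over all genes tested, of which 45.0% were above 0. At E10.5 they were above 0 for 2 and below 0 for 6, with a median of -0.20 beside -0.05 and 46.8% over all genes. No member separated DCKO from control libraries fully at either stage. This was so for 0.0395% of all genes at E11.5 and for 5.15% at E10.5.

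Ezh2, the main methyltransferase of dividing cells, was among the highest members. At E10.5 its 4 controls were at 81.0, 82.5, 97.4 and 111 RPKM and its 3 DCKO libraries at 62.2, 82.2 and 83.6 RPKM. The upper DCKO values lie inside the control range and the lowest lies below it. At E11.5 the controls ran from 57.2 to 142 RPKM with a median of 95.2, and the DCKO libraries from 57.5 to 126 RPKM with a median of 85.6. The groups cover nearly the same range. The log2 fold change at E11.5 was -0.13 (SE 0.22, 95% interval -0.58 to 0.33, limma adjusted p = 0.983). At E10.5 it was -0.31 (SE 0.32, 95% interval -1.04 to 0.43, limma adjusted p = 0.991).

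Ezh1, the weaker methyltransferase that predominates in resting cells, was the lowest member with a value. At E10.5 the controls were at 1.66, 2.48, 6.46 and 10.4 RPKM and the DCKO libraries at 3.50, 3.78 and 10.2 RPKM. Genotypes overlap, and the low values are those of males. At E11.5 the 8 controls were tightly grouped at 4.96 to 8.08 RPKM (6.14 ± 1.18, SD, n = 8). The 10 DCKO libraries ran from 3.49 to 19.99 RPKM (9.52 ± 5.22, SD, n = 10), so they spread both below and above the controls. The log2 fold change at E11.5 was 0.50 (SE 0.30, 95% interval -0.13 to 1.13, limma adjusted p = 0.912).

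The DCKO libraries with Ezh1 above the highest control (8.08 RPKM) were all 4 males and also some females. The 4 male DCKO libraries were at 8.12, 11.51, 13.8 and 19.99 RPKM and the 4 male controls at 5.23, 5.63, 7.70 and 8.08 RPKM. Every male DCKO library was thus above every male control, by a small margin at the closest pair. Among all genes tested, 2.34% separated the male groups in either direction, and Ezh1 was the 1 member of 8 that did. In females, DCKO libraries were at 3.49, 3.67, 4.44, 8.27, 8.83 and 13.1 RPKM and controls at 4.96, 5.10, 6.16 and 6.29 RPKM, with no separation. None of the 8 members separated the female groups, beside 1.22% of all genes. In males the fold change came to 0.86 on the log2 scale (SE 0.44, limma adjusted p = 0.740), which did not pass the threshold. In females it was 0.14 (SE 0.40, limma adjusted p = 1). Female minus male, the difference was -0.72 (SE 0.60, limma adjusted p = 0.995), so a difference between the sexes was not shown. In limma 4 of 12667 genes passed in males (0.0316%), 1 in females (0.00789%) and 0 in the test of genotype by sex (0%). No member passed in any of the 3. The 1 gene in females was Npm1, listed at 0 in each DCKO library. For genotype by sex, 454 genes had an unadjusted p under 0.05.

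Eed, which binds H3K27me3, had the most negative fold change among the members at E11.5. At E10.5 its value was close to that of Rbbp7 (-0.46), which fell to -0.81 without female DCKO 2, where Eed was at -0.64. At E10.5 the controls were at 49.0, 66.1, 67.0 and 76.8 RPKM and the DCKO libraries at 40.7, 40.9 and 52.3 RPKM. One DCKO library lies above the lowest control. At E11.5 the controls ran from 32.4 to 109.6 RPKM (64.6 ± 23.0, SD, n = 8) and the DCKO libraries from 8.36 to 103 RPKM (47.1 ± 27.8, SD, n = 10). The lowest values are DCKO, but the ranges overlap widely. The log2 fold change was -0.56 at E10.5 (SE 0.34, 95% interval -1.33 to 0.21, limma adjusted p = 0.991) and -0.71 at E11.5 (SE 0.37, 95% interval -1.49 to 0.07, unadjusted p = 0.0713, limma adjusted p = 0.902). In E11.5 males Eed was at 8.36, 28.1, 39.9 and 64.3 RPKM in DCKO and at 32.4, 57.5, 64.9 and 109.6 RPKM in controls. The lowest male DCKO value belongs to male DCKO 1, a library low in germ cell markers. On the log2 scale the difference was -1.07 in males (SE 0.55, limma adjusted p = 0.740) and -0.35 in females (SE 0.50, limma adjusted p = 1). Without male DCKO 1 the male value was -0.52, and without female DCKO 2 the female value was -0.10. Without the 3 libraries highest in somatic markers, a step chosen after seeing the data, the fold change over both sexes was -0.53 (limma adjusted p = 0.773). It was -0.44 without male DCKO 1 alone and -0.31 with library weights.

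Suz12 differed little by genotype. At E10.5 its controls were at 37.1, 45.2, 53.7 and 67.2 RPKM and its DCKO libraries at 33.6, 48.4 and 60.2 RPKM. At E11.5 the controls ran from 27.6 to 100.3 RPKM with a median of 51.3 and the DCKO libraries from 15.7 to 99.3 RPKM with a median of 55.2. Genotypes are interleaved at both stages. Fold changes on the log2 scale were -0.04 (E10.5; SE 0.37, limma adjusted p = 0.995) and -0.12 (E11.5; SE 0.32, limma adjusted p = 0.992).

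The histone-binding subunits were also examined. At E10.5 Rbbp4 was at 17.0, 18.8, 25.2 and 39.5 RPKM in controls and at 18.9, 21.5 and 49.3 RPKM in DCKO. At E11.5 Rbbp4 held a narrow range in controls, 20.9 to 27.5 RPKM (24.5 ± 2.25, SD, n = 8), and a wider one in DCKO, 19.9 to 52.4 RPKM (32.3 ± 11.2, SD, n = 10). The highest DCKO values lie well above the controls, and the lowest lies just below them. Its fold change at E11.5 was 0.32 on the log2 scale (SE 0.23, 95% interval -0.16 to 0.80, limma adjusted p = 0.946). Rbbp7, encoded on the X chromosome, was at 70.3, 85.6, 113 and 120 RPKM in E10.5 controls and at 35.6, 80.9 and 122 RPKM in E10.5 DCKO. The lowest of these is female DCKO 1, and the others lie close to the control range. At E11.5 Rbbp7 ran from 31.6 to 135 RPKM in controls and from 70.8 to 170.3 RPKM in DCKO. The log2 fold change was -0.46 at E10.5 (SE 0.47, limma adjusted p = 0.991) and 0.34 at E11.5 (SE 0.22, 95% interval -0.11 to 0.79, limma adjusted p = 0.914). Without female DCKO 1 the E10.5 value was 0.06, so its sign rested on that library, and without male control 4 the E11.5 value was 0.17.

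Among the Polycomb-like subunits, Mtf2 was at 55.0, 65.6, 101 and 113 RPKM in E10.5 controls and at 76.3, 78.0 and 82.7 RPKM in DCKO. All DCKO values fall between the male and the female controls. At E11.5 Mtf2 ran from 37.9 to 88.6 RPKM in controls with a median of 66.3 and from 37.3 to 180.3 RPKM in DCKO with a median of 64.4. The high value is male DCKO 4 alone. Its fold change of 0.13 (log2; SE 0.28, limma adjusted p = 0.991) became -0.11 without that library. Phf19 was at 23.7, 35.6, 45.0 and 129 RPKM in E10.5 controls and at 22.8, 25.3 and 59.9 RPKM in DCKO. At E11.5 it ran from 3.13 to 50.3 RPKM in controls with a median of 23.7 and from 3.53 to 46.6 RPKM in DCKO with a median of 20.8. Its E11.5 genotype difference was -0.02 on the log2 scale (SE 0.40, 95% interval -0.87 to 0.82, limma adjusted p = 0.996). It was 0.02 with median-of-ratios scaling and 0.14 with quantile normalization, so no direction is given for Phf19.

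**Figure D2:**
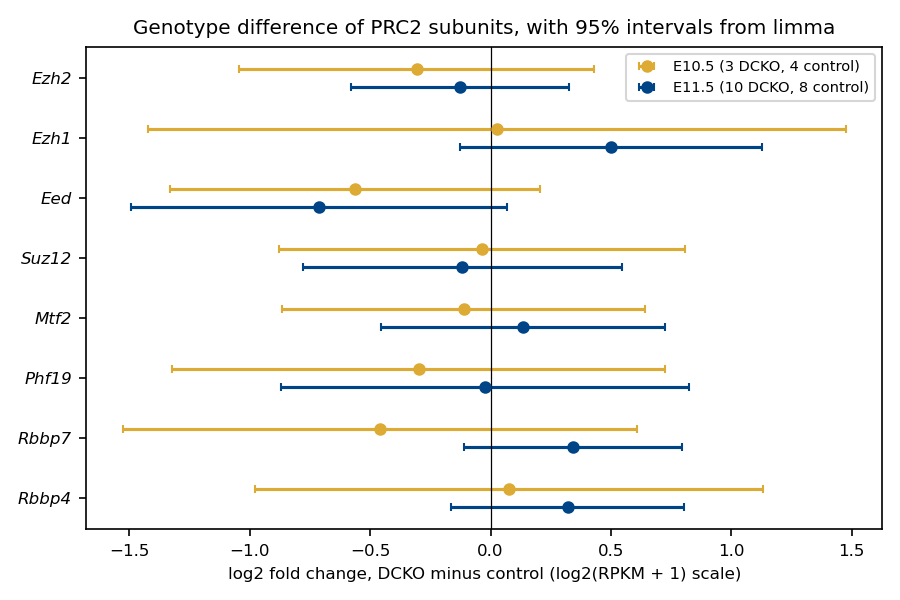
Log2 fold change (DCKO minus control, horizontal axis) of the 8 tested PRC2 genes at E10.5 (yellow) and E11.5 (dark blue); points are limma estimates and bars 95% intervals. All 16 intervals include 0, and Eed lies furthest to the left at E11.5 (-0.71).

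Ratios within a library compare the RNA of 2 alternative subunits, and no protein was measured. They are given as log2((RPKM + 1)/(RPKM + 1)), in which the added 1 compresses ratios to a low gene such as Ezh1. Ezh2 exceeded Ezh1 in 7 of 7 libraries at E10.5 and in 18 of 18 at E11.5. At E11.5 this ratio averaged 3.73 ± 0.52 in controls (SD, n = 8; 2.68 to 4.55) and 3.21 ± 0.97 in DCKO (SD, n = 10; 1.48 to 4.63). The lowest DCKO values lie under every control, and the highest lies above. At E10.5 it averaged 4.14 ± 0.81 in controls (SD, n = 4) and 3.62 ± 0.68 in DCKO (SD, n = 3). The DCKO-minus-control difference was -0.52 at E10.5, running from -0.86 to -0.16 as each library was left out (-0.16 without female DCKO 2), and -0.52 at E11.5, running from -0.68 to -0.33 (-0.33 without male DCKO 3). The two-sided exact permutation p was 0.4 for the younger and 0.192 for the older stage, and each was 0.889 after adjustment over 6 ratio tests. The smallest exact permutation p possible was 0.0286 for the younger and 2.3e-05 for the older stage. Unlike the limma fits, the ratio tests took no account of sex. At E10.5 every male ratio of Ezh2 over Ezh1 (4.23 to 4.95) was above every female one (2.89 to 3.91). The sexes were not balanced between the genotypes there, and the part of sex in the difference was not tested.

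Rbbp7 exceeded Rbbp4 in 6 of 7 libraries at E10.5 and in 18 of 18 at E11.5. The exception was female DCKO 1 at E10.5, with a log2 ratio of -0.46. The genotype difference of this ratio was -0.61 at E10.5 (exact permutation p = 0.629) and 0.08 at E11.5 (exact permutation p = 0.768). Mtf2 exceeded Phf19 in 6 of 7 libraries at E10.5 and in 18 of 18 at E11.5, the exception being male control 1 at E10.5, at -1.22. Its genotype difference was 0.50 at E10.5 (exact permutation p = 0.714) and 0.07 at E11.5 (exact permutation p = 0.889). At E10.5 this ratio was lower in every male (-1.22 to 0.53) than in every female (1.59 to 2.05). None of the 6 differences passed.

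**Figure D3:**
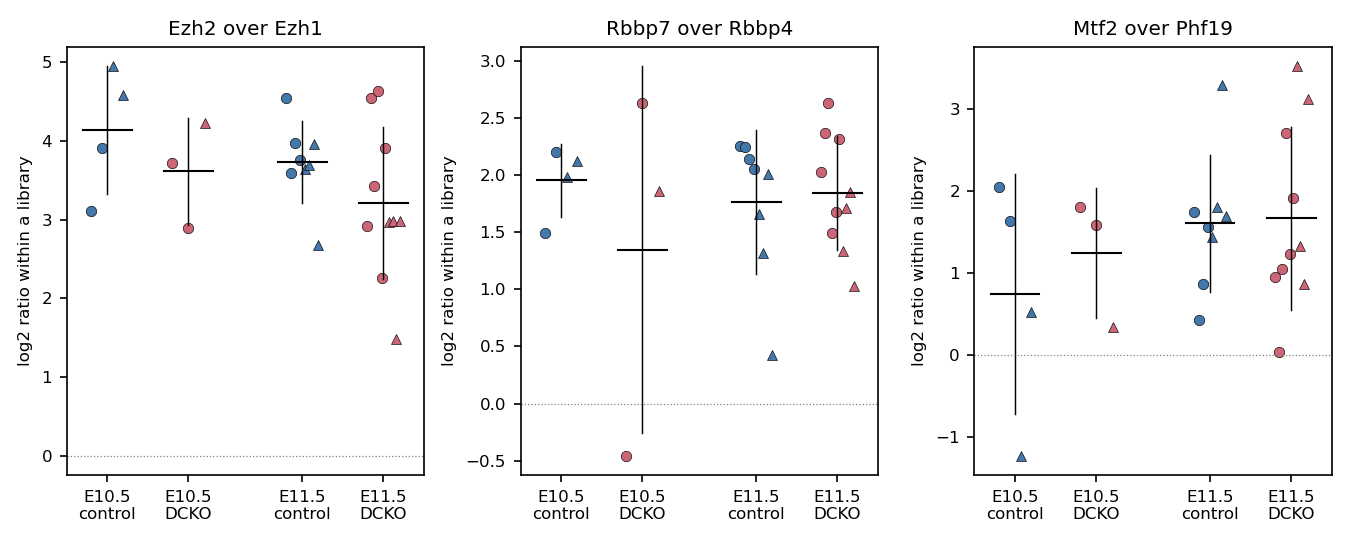
Log2 ratio within each library (points; circles female, triangles male) of Ezh2 over Ezh1, Rbbp7 over Rbbp4 and Mtf2 over Phf19, by stage and genotype, with group means and 1 SD. Ezh2 over Ezh1 is above 0 in every library, and each of the other ratios falls below 0 in 1 library, at E10.5.

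The second comparison was between the sexes, on which the labels divide both genotypes. At E11.5 no member passed in limma between female and male controls (1 of 12667 genes, 0.00789%; 298 genes and 2 members at an unadjusted p under 0.05), nor over both genotypes, a test added after seeing the data (5 of 12667, 0.0395%; 722 genes and 2 members). The 2 members were Rbbp7 and Phf19 in both tests. Rbbp7 was 96.3 to 170.3 RPKM in the 10 female libraries (126 ± 21.2, SD, n = 10) and 31.6 to 109.4 RPKM in the 8 male libraries (80.4 ± 26.9, SD, n = 8). Of the 10 female values, 8 lay above every male value. The female-minus-male log2 difference was 0.80 in controls (SE 0.32, unadjusted p = 0.0219, limma adjusted p = 1) and 0.69 over both genotypes (SE 0.22, unadjusted p = 0.0046, limma adjusted p = 0.775). The value in controls was 0.46 without male control 4, the E11.5 library with the fewest genes at 1 RPKM (8277). At E10.5 the difference was 0.24 (SE 0.47, limma adjusted p = 0.968), with females at 35.6 to 122 RPKM and males at 70.3 to 85.6 RPKM. That value ran from 0.0014 without female DCKO 2 to 0.59 without female DCKO 1.

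The X-linked H3K27 demethylase Kdm6a and its Y-linked copy Uty were read the same way. Kdm6a was 27.7 ± 5.73 RPKM in E11.5 females (SD, n = 10) and 14.1 ± 8.31 RPKM in males (SD, n = 8). Uty was at most 0.0286 RPKM in every E11.5 female and 0.445 to 7.57 RPKM in males, which matches the sex labels. The log2 difference over both genotypes was 1.15 for Kdm6a (SE 0.33, limma adjusted p = 0.631) and -1.84 for Uty (SE 0.36, limma adjusted p = 0.0846). Uty and Kdm6a are similar in sequence and may share reads.

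Phf19 was higher in females at one stage and in males at the other. At E11.5 it was 13.0 to 50.3 RPKM in females (30.9 ± 11.7, SD, n = 10) and 3.13 to 26.5 RPKM in males (15.6 ± 8.43, SD, n = 8). At E10.5 it was 22.8, 23.7, 25.3 and 35.6 RPKM in females and 45.0, 59.9 and 129 RPKM in males, so every male was above every female. The female-minus-male log2 difference was 1.13 at E11.5 (SE 0.40, unadjusted p = 0.0116, limma adjusted p = 0.817) and -1.33 at E10.5 (SE 0.45, unadjusted p = 0.0167, limma adjusted p = 0.959). Neither passed, the tables may have been normalized separately, and the difference between the stages was not tested. Without the 3 libraries highest in somatic markers the E11.5 value was 0.67 (limma adjusted p = 0.616).

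Ezh1 and Mtf2 also separated the sexes at E10.5, with females higher. Ezh1 was 3.78 to 10.4 RPKM in females and 1.66 to 3.50 RPKM in males, and Mtf2 was 78.0 to 113 RPKM in females and 55.0 to 76.3 RPKM in males. Thus 3 of 8 members did not overlap between the sexes at E10.5, where 7.35% of all genes did not. The log2 differences were 1.24 for Ezh1 (SE 0.64, limma adjusted p = 0.959) and 0.52 for Mtf2 (SE 0.33, limma adjusted p = 0.959). In limma 2 of 11584 genes passed this added test (0.0173%), with 419 genes and 1 member, Phf19, at an unadjusted p under 0.05. At E11.5 no member separated the sexes, beside 0.0632% of all genes that did. The mean of Ezh1 was there higher in males (10.01 ± 4.94 RPKM, SD, n = 8) than in females (6.43 ± 2.93 RPKM, SD, n = 10).

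Phf19 also followed the germ cell markers across the E11.5 libraries. Its log2 level had a Pearson r of 0.86 and a Spearman rho of 0.85 with the mean of 10 germ cell markers over 18 libraries, which share their depth and amplification; this is a description of these libraries. The r was 0.83 without the 2 libraries farthest from the median of those markers (female DCKO 4 and male control 3), and 0.68 without the 3 libraries highest in somatic markers. With the mean of the somatic markers r was -0.70, and -0.18 without those 3. Its lowest values, 3.13, 3.53 and 13.0 RPKM, were in male control 3, male DCKO 1 and female DCKO 4, and the next was 13.2 RPKM in male control 1. Ezh2 in the same 3 libraries was at 103, 115 and 115 RPKM, above its mean over all libraries, and its r with the germ cell markers was -0.21. Suz12 (0.54), Eed (0.43) and Mtf2 (0.34) also had a positive r with these markers, and the remaining members lay between -0.24 and 0.08. Group means were not subtracted for these correlations. Whether the germ cell share of a library sets its Phf19 value was not tested.

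**Figure D4:**
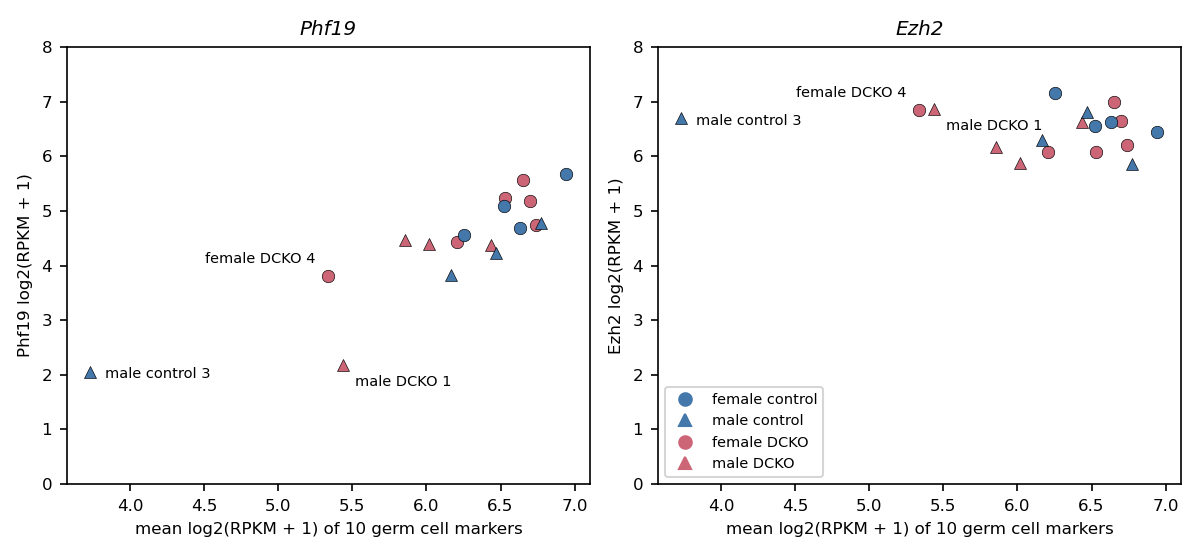
Log2(RPKM + 1) of Phf19 (left) and Ezh2 (right) against the mean log2(RPKM + 1) of 10 germ cell markers in the 18 E11.5 libraries, by sex and genotype; the 3 libraries highest in somatic markers are named. Phf19 is higher where the markers are higher (r = 0.86), and Ezh2 stays in a narrow band (r = -0.21).

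The members did not vary together as a block. After the sex-by-genotype group means were subtracted, 16 of 28 pairs of members had an r above 0 over the 18 E11.5 libraries, with a median of 0.07 and a range from -0.56 to 0.70. The highest pairs were the core subunits Eed and Suz12 (0.70) and Suz12 with Mtf2 (0.69). The lowest was Ezh2 with Eed (-0.56). No such range was computed for pairs of other genes. In male DCKO 1, a library low in germ cell markers, Eed (8.36 RPKM) and Suz12 (15.7 RPKM) had their lowest E11.5 values, while Ezh2 was at 115 RPKM. The part of such libraries in these correlations was not tested. Of 12666 other genes, those with the pattern most like Ezh2 were Sh3gl3, Golim4 and 2210013O21Rik (each r = 0.82). They were picked as the highest of 12666 values over 18 libraries. Whether their r exceeds what unrelated genes would reach after such a choice was not tested. Among the members, Rbbp7 ranked 1947 (r = 0.38) and Eed 12270.

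Genes that work with the complex were read from lists, with no member past the threshold in the genotype comparison at either stage. Of 6 accessory genes outside the members, all 6 were tested at E11.5 and 1 had a fold change above 0, with a median of -0.03. The highest 2 were Aebp2, a cofactor that stabilises the core, at 15.3 RPKM (log2 fold change 0.61, SE 0.37, limma adjusted p = 0.912), and AU022751, the mouse Ezhip gene, whose product inhibits Ezh2, at 8.30 RPKM. At E10.5 3 of the 6 were above 0. Aebp2 was there at 11.7, 13.2 and 13.6 RPKM in DCKO and at 15.4, 22.9, 23.8 and 24.9 RPKM in controls, without overlap (as for 5.15% of all genes), a difference of -0.72 on the log2 scale (SE 0.43, limma adjusted p = 0.991). Of the H3K27 demethylases, 3 were tested at E11.5 and 1 was above 0. Kdm6a had a mean of 21.6 RPKM (log2 fold change -0.10, SE 0.33) and Kdm6b 8.64 RPKM (-0.51, SE 0.70). The Kdm6b mean rests on 2 of the libraries low in germ cell markers, male DCKO 1 at 75.7 RPKM and male control 3 at 24.1 RPKM. In every other E11.5 library it was at most 8.69 RPKM, and its median was 3.84 RPKM. Of 5 chromobox readers of H3K27me3, 3 were tested at E11.5. Cbx7 averaged 31.4 RPKM (log2 fold change -0.87, SE 0.53, limma adjusted p = 0.912) and Cbx2 19.3 RPKM (0.43, SE 0.34, limma adjusted p = 0.946). The lowest Cbx7 values were in libraries low in germ cell markers: male control 3 (2.39 RPKM), male DCKO 1 (3.31 RPKM) and female DCKO 4 (6.38 RPKM). Their part in its fold change was not tested.

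Of 14 genes of other complexes that hold Rbbp4 or Rbbp7, all were tested, with 5 fold changes above 0 at E11.5 and 6 at E10.5. Sin3b, a corepressor scaffold, averaged 260.3 RPKM at E11.5 (log2 fold change 0.21, SE 0.36) and the deacetylase Hdac1 212 RPKM (-0.31, SE 0.25).

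The last list held 40 developmental regulators known as PRC2 targets in embryonic stem cells. Most were low: 33 of 40 averaged under 1 RPKM at E10.5 and 23 of 40 at E11.5, with 8 and 3 of them listed at 0 in every library of the stage. Of the 17 tested at E11.5, 9 had a fold change above 0 and 8 below, with a median of 0.00 beside -0.06 over all genes. Of the 7 tested at E10.5, 2 were above 0 and 5 below, with a median of -0.87 beside -0.05 over all genes. The highest were Bmp4, a ligand that also acts in germ cell formation, at 36.3 RPKM at E11.5 (log2 fold change -0.86, SE 0.51, limma adjusted p = 0.912), and Lhx1, a LIM homeobox factor, at 14.2 RPKM (0.14, SE 0.55). At E10.5 Bmp4 averaged 55.9 RPKM (-0.74, SE 0.48) and Lhx1 11.9 RPKM (1.05, SE 0.54, limma adjusted p = 0.991). Gata4 is also one of 8 gonadal somatic markers, whose summed level ran from 1.25 to 138 RPKM in E11.5 DCKO libraries and from 0.129 to 168 RPKM in controls. Their part in the levels of these regulators was not tested.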

How the data were processed

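RNA of sorted germ cells was measured by sequencing; the labels name the RNeasy Micro kit, amplification with Ovation RNA-Seq V2 and Encore Rapid libraries. The authors deposited RPKM per gene and library, 1 table per stage. The submitters' processing notes name build mm9, TopHat2 2.1.0, Cufflinks 2.2.1 and Cuffdiff, without roles. For gene models and strand use, the sources used here give nothing. Depth is unknown, so no counting error is given. Amplification of small RNA inputs can widen the spread between libraries.

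Each table was tested alone with limma 3.58.1 in R 4.3.3 (intensity trend) on log2(RPKM + 1), which understates changes of low genes, for genes averaging 1 RPKM or above. Benjamini-Hochberg adjustment ran over all genes tested, with a threshold of 0.05. The E11.5 model had 4 sex-by-genotype means, with genotype averaged over sex; the E10.5 model had additive genotype and sex. All tests were two-sided. Ratios used exact permutation of libraries, without a term for sex. The fits were tested on simulated data with larger changes than any member showed, which does not tell their power for smaller ones. No pair of libraries was identical (highest correlation 0.921 at E10.5 and 0.934 at E11.5).

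All members are described. From other lists the genes past the threshold are named, otherwise the 2 highest by mean RPKM at E11.5, and for Ezh2 the 3 genes most correlated with it. The members and lists were chosen with earlier results of these data known. Alternatives were pseudocounts of 0.1 and 0.5, no filter, a mean of 5 RPKM, 2 other scalings, library weights, replicate blocks, a somatic covariate and leaving libraries out. The counts of genes whose groups do not overlap, the tests of sex over both genotypes and the fits without the 3 libraries highest in somatic markers were added after seeing the data. One gene of the lists is not reported here.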

Additional observations from a re-analysis of the deposited data

Results flagged for a closer look

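Among 44 groups of 4 to 10 values examined, 3 held a library far from the rest of its group; chance alone gives about 1 in 20. All 3 were E11.5 male DCKO groups of 4. Mtf2 was 180.3 RPKM in male DCKO 4 and 37.31 to 54.44 RPKM in the others. Male DCKO 4 (8607 genes at 1 RPKM) and male control 4 (8277) were the E11.5 libraries with the fewest genes. Phf19 was 3.527 RPKM in male DCKO 1 and 19.8 to 21.06 RPKM in the others; this library also had low Pou5f1, at 14.8 RPKM. The log2 ratio of Ezh2 over Ezh1 was 1.478 in male DCKO 3, where Ezh1 was at 19.99 RPKM, and 2.97 to 2.984 in the others.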

How the results depend on the processing

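No PRC2 gene passed the threshold in any comparison under any alternative run (31 per comparison at E11.5, 19 at E10.5), and no ratio difference did. Signs were followed for all tested members only in the genotype comparison of each stage. Within a sex at E11.5 they were followed for Ezh1 and Eed. Between the sexes they were followed for Rbbp7 and Phf19, and at E10.5 also for Ezh1 and Mtf2. Other members in those comparisons, and genotype by sex, were not followed. Of the 724 alternative fold changes followed, 37 had the other sign, all in results with a log2 size of 0.46 or less. The cause was not tested. For Phf19 at E11.5 the fold change was 0.019 with median-of-ratios scaling, 0.14 with quantile normalization, 0.11 with library weights, 0.010 with the replicate block by title number, 0.067 without the libraries with the fewest genes, 0.080 without the 3 libraries highest in somatic markers (chosen after seeing the data), and -0.30 to 0.26 leaving out each library. For Suz12 at E11.5 it was 0.047 with the title-number block and -0.34 to 0.078 leaving out each library, for Mtf2 -0.11 to 0.27, and for Ezh1 in females -0.087 with the title-number block and -0.054 to 0.28.

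At E10.5 Rbbp4 was -0.37 with library weights, -0.046 with the replicate-number block and -0.23 to 0.44 leaving out each library. Suz12 was 0.058 with the replicate-number block, 0.041 without the library highest in somatic markers, 0.055 with the somatic covariate and -0.15 to 0.12 leaving out each library. Ezh1 was -0.099 with the title-number block, -0.099 without the library with the fewest genes and -0.33 to 0.42. Mtf2 ran from -0.41 to 0.0034 and Rbbp7 from -0.81 to 0.064. Eed kept its sign but ran from -0.91 to -0.44 at E11.5 leaving out each library (-0.31 with library weights), and from -1.46 to -0.52 in males and -0.57 to -0.10 in females. For ratios, Ezh2 over Ezh1 at E10.5 was -0.032 with the title-number block. Leaving out each library gave -1.25 to 0.29 for Rbbp7 over Rbbp4 at E10.5 and -0.11 to 0.17 at E11.5 (-0.019 without the libraries with the fewest genes). Mtf2 over Phf19 gave -0.16 to 0.95 at E10.5 (-0.16 without the library with the fewest genes, -0.18 with the title-number block) and -0.14 to 0.31 at E11.5 (-0.081 without the libraries with the fewest genes, -0.053 without the 3 highest in somatic markers).

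What the title number marks is not given in the labels. Neither it nor the replicate number was taken to pair the samples in the main fits, since not every pair was correlated. At E11.5, 7 of 16 pairs of libraries with the same title number had a correlation of their deviations above 0.1. For the replicate number, compared within a sex, it was 2 of 8 pairs. A shared effect need not show in every pair, so these counts do not decide whether libraries were paired. The title number left a trace in the E11.5 data: 11 of 16 libraries correlated best with a library of their own number. No chance level was computed for that count. The median correlation was 0.081 within and -0.0046 between numbers, and the highest within a number was 0.49. The main fits held no term for the title number, which was used only as an alternative block. At E10.5 no same-number pair was above 0.1. Over all genes, the count past the threshold ran from 2 to 5 for genotype at E11.5, 1 to 4 in females, 1 to 5 in males, 0 to 1 for genotype by sex, 0 to 22 for sex in controls and 1 to 51 over both genotypes (22 and 51 with library weights). At E10.5 it ran from 0 to 11 for genotype (11 without male DCKO 1) and 1 to 6 for sex. Unknown depth limits all values, Ezh1 and low developmental genes most.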
